A study of Mus musculus with 6 samples.

Results

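Axon guidance genes were followed in dorsal root ganglia, the clusters beside the spinal cord that hold the cell bodies of sensory neurons. The set comprised every mouse gene whose symbol names a semaphorin of classes 3 to 7, a plexin, a neuropilin, an ephrin, an Eph receptor, a Slit, a Robo, a netrin, an Unc5 receptor or Dcc. By this rule 68 of the 54242 symbols were members, 35 of them ligands and 33 receptors, and they held 412 annotated transcripts. The 3 fasted libraries came from mice kept for 10 days on an intermittent fasting diet, and the 3 fed libraries from mice that ate ad libitum. All animals were male C57bl/6 mice aged 8 to 10 weeks. Cells of the ganglia at L4-6 were freed with Dispase II, collagenase and papain and enriched for neurons on a gradient of 15% BSA before RNA was taken. The animals were killed after 24 hours, and what that interval followed is not stated. The labels tie a replicate neither to a single animal nor to a pool, and p-values therefore measure spread from library to library, part of which may be technical.

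Guidance cues act in pairs of ligand and receptor. Semaphorins bind plexins, either directly or, for most secreted class 3 members, through neuropilins. Ephrins are tethered to one cell and bind Eph receptor tyrosine kinases on another, and both sides can signal. Slits are secreted and bind Robo receptors, while netrins bind DCC, neogenin and the UNC5 receptors. In development these systems steer sensory axons into the spinal cord and the skin, and many of the genes remain on in adult sensory neurons, glia and vessels.

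Several members carry small coding exons that annotated transcripts include or skip, and the shares of transcripts given below turn on them; the Slit1 counterpart of a Slit2 exon is shown for comparison. They are shown 5′ to 3′ on the strand of the gene, from GENCODE release M21 on GRCm38, and were chosen after the values were seen. Slit1 and Slit2 share a 24-base exon, on chr19:41638883-41638906 (minus strand) and chr5:48220967-48220990 (plus strand), in which 21 bases are the same and the 3 that differ are in capitals.
Slit2 24-base exon: cTaaagaAcagtaTttcattccag
Slit1 24-base exon: cCaaagaGcagtaCttcattccag
Slit2 has a further 27-base exon on chr5:48263641-48263667 (plus strand), and Robo2 a 12-base exon on chr16:74008775-74008786 (minus strand).
Slit2 27-base exon: ctgctaatctgaatgaggtggaaaaag
Robo2 12-base exon: ttcgccctgttg
An Nrp2 exon ends either at chr1:62786301 or 15 bases further on at chr1:62786316 (plus strand, both from chr1:62786281), and the added bases of the long form are in capitals.
Nrp2 long exon form: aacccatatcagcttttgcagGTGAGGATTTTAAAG
Nrp2 short exon form: aacccatatcagcttttgcag

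Expression was measured as TPM (transcripts per 1000000 transcripts), a share that is corrected for transcript length, so levels of different genes can be set side by side. Depth is lost in this unit and no counting interval can be given. The members together made up 0.121% of a library's TPM. Their summed level was 1218, 1211 and 1267 TPM in the fasted libraries and 1196, 1163 and 1216 TPM in the fed ones. Markers of sensory neurons were high in every library, at 12151 to 13755 TPM in sum, and the 4 satellite glia markers and 7 Schwann cell markers were all detected. No marker of the 9 cell types checked was at 0 in a library. Summed macrophage markers were 58.2, 65.8 and 50.9 TPM in fasted libraries against 83.8, 96.3 and 77.5 TPM in fed ones, and 7 of 8 were lower without overlap. Summed endothelial markers were 119.6, 129 and 134 TPM in fasted libraries against 147, 178 and 149.6 TPM in fed ones, with 6 of 9 lower. The 4 haemoglobin genes summed to 2339, 1709.6 and 3265 TPM in fasted libraries against 1279, 1559 and 1372 TPM in fed ones. Fed replicate 2 stood apart in skeletal muscle markers, with 2848 TPM in that library against 55.2 to 295 TPM in the other five.

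The semaphorin system was the most abundant, with its ligands Sema3b, Sema7a and Sema4f among the leading genes. Of the 68 members, 6 averaged at least 50 TPM, 21 lay between 10 and 50 TPM, 33 between 1 and 10 TPM, and 8 below 1 TPM. The leading gene was Sema3b, a secreted semaphorin that acts through neuropilins, followed by Plxnc1, Robo2, Sema7a, Sema4f and Plxnd1. Plxnc1 is the known receptor of the membrane-anchored Sema7a, so both sides of that pair were among the leading genes, as were Slit1 and Robo2 of the Slit system.

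Sema3b had 131, 121 and 136 TPM in the fasted libraries and 119, 125 and 135 TPM in the fed libraries. Sema4f, a transmembrane class 4 semaphorin, had 71.9, 72.3 and 70.1 TPM in fasted and 72.3, 65.6 and 69.6 TPM in fed libraries. Sema7a had 76.5, 71.2 and 78.1 TPM in fasted and 70.6, 66.4 and 74.9 TPM in fed libraries. For all 3 of these ligands the groups overlapped. Among the class 6 semaphorins, which are transmembrane ligands of the A plexins, Sema6d led, with 40.8, 41.5 and 43.8 TPM in fasted and 40.7, 41.9 and 41.4 TPM in fed libraries. Sema5a, which carries thrombospondin repeats, had 24.6, 22.5 and 26.7 TPM in fasted and 21.97, 23.9 and 26.2 TPM in fed libraries. Both again overlapped. Sema3a, the best known repellent of sensory axons, averaged only 0.175 TPM over the 6 libraries and was one of the 8 members below 1 TPM.

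On the receptor side, Plxnc1 had 105, 106 and 106 TPM in fasted and 105, 98.2 and 108 TPM in fed libraries. Plxnd1, the receptor of Sema3e, had 60.3, 63.8 and 65.7 TPM in fasted and 67.6, 55.4 and 52.2 TPM in fed libraries. The fasted values of both genes lay within the range of the fed ones. Nrp1, a co-receptor for class 3 semaphorins and for VEGF, had 25.7, 27.9 and 29.4 TPM in fasted and 27.9, 27.7 and 28.4 TPM in fed libraries. Its relative Nrp2 was close behind, at 24.5 TPM on average against 27.8 TPM for Nrp1.

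Ephrins were more abundant than their receptors in sum, at 100.2, 99.6 and 96.7 TPM in fasted and 91.2, 91.9 and 90.5 TPM in fed libraries for the 8 ligands. The 14 Eph receptors summed to 68.2, 66.7 and 71.2 TPM in fasted and 65.7, 67.7 and 68.8 TPM in fed libraries. The leading ligands were Efna1 of the GPI-anchored A class and Efnb2 of the transmembrane B class. Efna1 had 36.9, 35.1 and 32.3 TPM in fasted and 29.9, 33.9 and 29.02 TPM in fed libraries. Efnb2 had 22.5, 21.3 and 23.3 TPM in fasted and 21.4, 19.4 and 21.9 TPM in fed libraries. In both, the fasted and fed values overlapped. The highest receptor was Ephb6, whose kinase domain is known to be inactive, with 25.5, 24.6 and 26.3 TPM in fasted and 25.9, 24.3 and 27.7 TPM in fed libraries. Epha5, the highest of the A class by its mean over the 6 libraries (8.61 TPM, beside 8.46 TPM for Epha6), had 9.10, 8.53 and 8.89 TPM in fasted and 8.52, 8.99 and 7.63 TPM in fed libraries. The groups of these receptors overlapped as well.

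In the Slit system Robo2 exceeded Robo1 many times over, with means of 86.4 and 6.27 TPM, and Robo3 averaged 0.0685 TPM. Slit1, the most abundant of the ligands, had 43.1, 43.7 and 46.9 TPM in fasted and 43.5, 38.6 and 44.8 TPM in fed libraries. Netrin genes were low. Ntn1, the classical ligand of Dcc, had 6.10, 6.34 and 5.27 TPM in fasted and 7.09, 6.45 and 5.92 TPM in fed libraries. Dcc itself averaged 0.335 TPM, while neogenin (Neo1), a netrin and RGM receptor outside the rule, had 12.97, 12.98 and 14.1 TPM in fasted and 12.4, 13.9 and 13.97 TPM in fed libraries. Unc5a was the highest of the repulsive netrin receptors, with 8.49, 8.79 and 8.71 TPM in fasted and 8.50, 8.31 and 9.76 TPM in fed libraries, and the groups overlapped for Ntn1, Neo1 and Unc5a alike. Besides Sema3a, Robo3 and Dcc, the members below 1 TPM were Efna4 at 0.555, Epha1 at 0.0310, Epha3 at 0.837, Epha8 at 0.700 and Unc5d at 0.801 TPM, and none of the 8 was tested.

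**Figure D1:**
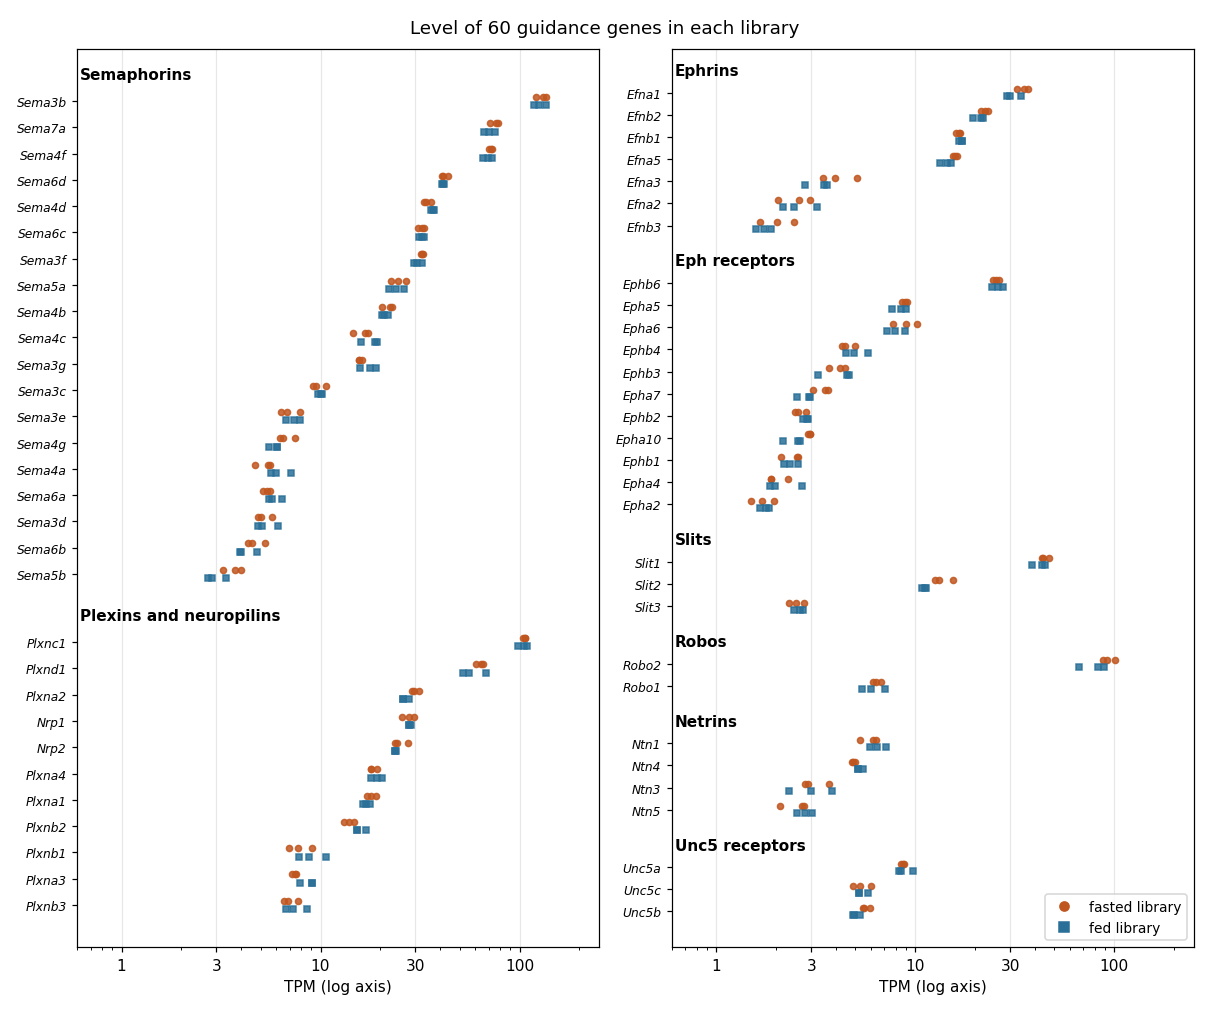
Level of the 60 tested guidance genes in TPM on a log axis, 1 row per gene, with the 3 fasted libraries as circles and the 3 fed libraries as squares. Sema3b, Plxnc1 and Robo2 lie farthest right, and for most genes the circles and squares of a row cover the same narrow range.

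The comparison of interest was fasting against free feeding, asked of each gene over 3 libraries per group. No guidance gene passed the test, and the differences were small. Of the 60 members with a mean of at least 1 TPM, 0 had an adjusted p under 0.05 by limma on log2(TPM + 1), a linear model fitted to all 15097 tested genes with Benjamini-Hochberg adjustment. Over all tested genes 1 was called, 0.00662%. That gene, Gm23257, is not a member and was singled out after its value was seen. The smallest adjusted p among members was 0.458, for Slit2. At an unadjusted p under 0.05 stood 4 members in either direction, 6.67% of those tested, beside 9.94% of all tested genes. Slit2 and Plxna2 were the 2 in the higher direction, where 6.72% of all genes stood, and Plxna3 and Plxnb2 the 2 in the lower direction, where 3.22% of all genes stood.

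Members' log2 fold changes ran from -0.22 for Sema4a to 0.28 for Slit2, with a median of 0.02 beside 0.03 over all genes. Estimates were above 0 for 31 members and below 0 for 29, so 51.7% were above 0, against 62.5% of all tested genes. Both shares depend on the scaling. After median-of-ratios scaling 50.9% of all genes were above 0, with 28 members above 0 and 32 below. After rescaling without mitochondrial genes it was 50.3% of all genes, again with 28 members above 0 and 32 below. At an unadjusted p under 0.05 the genes split into 1015 higher and 486 lower on the deposited scale, 567 higher and 733 lower after median-of-ratios scaling, 663 and 661 after quantile normalization, and 557 and 756 without mitochondrial genes. For 59 of the 60 members the 95% interval of the fold change stayed within 1.5-fold in either direction, 98.3% beside 90.4% of all tested genes. The exception was Efna3, with 5.09, 3.97 and 3.44 TPM in fasted and 3.60, 3.48 and 2.80 TPM in fed libraries and an interval of -0.07 to 0.59 on the log2 scale. The pseudocount of 1 pulls low genes towards no change. With a pseudocount of 0.1 the count was 57 of 60, or 95% beside 82% of all genes. Across the 6 libraries the ratio of a tested member's highest to its lowest value ran from 1.07, for Sema6c, to 1.82, for Efna3.

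**Figure D2:**
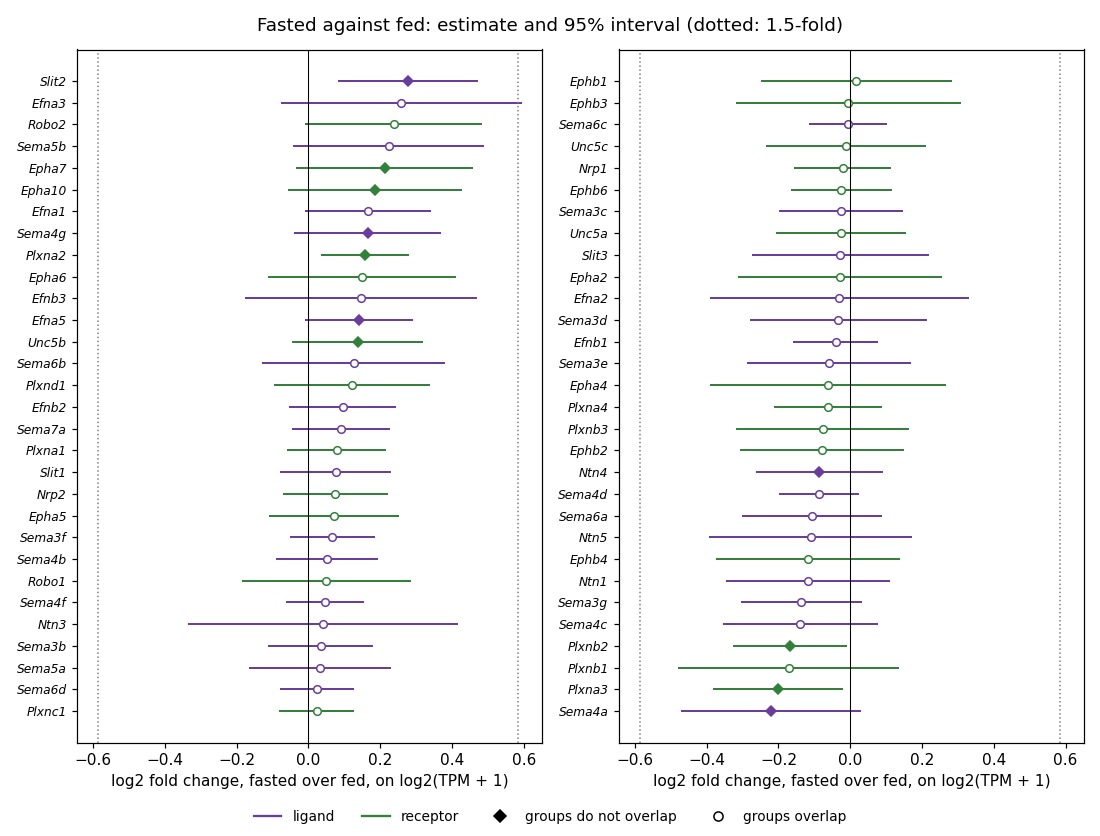
Log2 fold change of fasted over fed libraries for the 60 tested members, sorted from high to low, with 95% intervals from limma; ligands are violet and receptors green, and filled diamonds mark genes whose groups did not overlap. Most intervals cross 0, and only that of Efna3 reaches past the dotted line at 1.5-fold.

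A second description asked whether all fasted libraries lay on one side of all fed ones. This held for 11 of 60 members, 18.3%, beside 17.8% of all tested genes, which is near the background. Of the 11, 7 were higher in fasted libraries (Slit2, Plxna2, Epha7, Epha10, Sema4g, Efna5 and Unc5b), where 12.7% of all genes were, and 4 were lower (Plxna3, Plxnb2, Sema4a and Ntn4), where 5.07% were. Without fed replicate 2, the library high in muscle markers, 10 were higher and 5 lower, beside 16.7% and 8.43% of all genes. The split also depends on the scaling. After median-of-ratios scaling 7 members were higher and 7 lower, beside 7.61% and 7.91% of all genes. Without mitochondrial genes 4 were higher and 6 lower, beside 7.46% and 8% of all genes. Haemoglobin sums were higher in all fasted libraries and macrophage and most endothelial markers lower, and their part in these counts was not tested. Each gene is given below with its system, and all had adjusted p values between 0.458 and 0.665 by limma.

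On the deposited gene sums with a pseudocount of 1, Slit2 had the highest estimate of the members. Efna3 was above it with a pseudocount of 0.1 or 0.5 and over protein-coding transcripts alone. It was also above Slit2 without fasted replicate 3, without fed replicate 1 and without fed replicate 2. Robo2 was above Slit2 without fed replicate 1, Efna1 without fasted replicate 3, and Sema4g and Sema5b over protein-coding transcripts alone. Slit2 (chr5:47983138-48307733, plus strand) encodes a secreted repellent that is also known to promote branching of sensory axons. It had 13.1, 12.6 and 15.5 TPM in fasted libraries and 10.8, 11.2 and 11.4 TPM in fed libraries. Every fasted library lay above every fed one, with fasted replicate 3 the highest. The means were 13.7 ± 1.54 TPM in fasted and 11.1 ± 0.284 TPM in fed libraries (SD, n = 3 each), a log2 fold change of 0.28 with a standard error of 0.08 and an adjusted p of 0.458 by limma. Its relatives did not separate, with log2 fold changes of 0.08 for Slit1 and -0.03 for Slit3. The receptor Robo2 had 87.6, 92.1 and 100.2 TPM in fasted libraries and 88.5, 66.6 and 83.2 TPM in fed ones. Fed replicate 2 was the lowest, and fed replicate 1 lay above fasted replicate 1, so the groups overlapped at a log2 fold change of 0.24 (SE 0.10, adjusted p = 0.507 by limma). Without fed replicate 2 the estimate for Robo2 was 0.12.

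The estimates of the 4 A plexins had both signs. Plxna2 (chr1:194618218-194816869, plus strand), a receptor for class 6 semaphorins and, with neuropilins, for class 3 ones, had 29.5, 28.8 and 31.2 TPM in fasted and 26.00, 26.1 and 27.7 TPM in fed libraries. The lowest fasted library stood above the highest fed one. The means were 29.8 ± 1.23 TPM in fasted and 26.6 ± 0.969 TPM in fed libraries, a log2 fold change of 0.16 (SE 0.05, adjusted p = 0.476 by limma). Plxna3 (chrX:74329066-74344689, plus strand), which pairs with Nrp2 for Sema3f, had 7.46, 7.52 and 7.17 TPM in fasted and 9.06, 9.06 and 7.84 TPM in fed libraries. Here the 3 fasted libraries were the lower ones, at a log2 fold change of -0.20 (SE 0.08, adjusted p = 0.495 by limma). Plxna1 and Plxna4 overlapped between groups, with log2 fold changes of 0.08 and -0.06.

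All 3 B plexins, a family that includes receptors of class 4 semaphorins, had estimates below 0. Plxnb2 (chr15:89155549-89180788, minus strand) had 13.96, 14.7 and 13.2 TPM in fasted and 15.2, 16.9 and 15.2 TPM in fed libraries. Every fasted library was below every fed one, at a log2 fold change of -0.17 (SE 0.07, adjusted p = 0.497 by limma). Plxnb1 had 6.92, 7.72 and 9.10 TPM in fasted and 7.78, 10.7 and 8.70 TPM in fed libraries, and Plxnb3 had 6.53, 6.87 and 7.69 TPM in fasted and 6.68, 8.52 and 7.26 TPM in fed libraries. In both genes fed replicate 2 was the highest of the fed libraries and the groups overlapped. The 3 estimates stayed below 0 under every alternative except leaving out fed replicate 2, where 2 of 3 did.

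Of the class 4 ligands, Sema4a and Sema4g lay on opposite sides. Sema4a (chr3:88435959-88461182, minus strand), a membrane semaphorin also known from immune cells, had 5.55, 4.66 and 5.44 TPM in fasted and 5.97, 7.14 and 5.66 TPM in fed libraries. The fasted libraries were all lower, by a log2 fold change of -0.22 (SE 0.11, adjusted p = 0.520 by limma), and the estimate was -0.14 without fed replicate 2. Sema4g (chr19:44989101-45003397, plus strand) had 6.46, 6.24 and 7.43 TPM in fasted and 5.52, 6.02 and 6.06 TPM in fed libraries, with all fasted libraries higher and a log2 fold change of 0.16 (SE 0.09, adjusted p = 0.528 by limma). The Sema4g estimate was 0.10 without fasted replicate 3 and 0.38 over protein-coding transcripts alone. Sema3g, a secreted semaphorin known from arterial endothelium, had 15.7, 15.7 and 16.1 TPM in fasted and 15.8, 17.8 and 18.9 TPM in fed libraries and overlapped. The macrophage and endothelial marker sums given above were lower in the same fasted libraries as Sema4a, Plxnb2 and Plxna3, and their part in these results was not tested. In RNA from mixed cells, fewer cells of a type and less RNA per cell cannot be told apart.

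**Figure D3:**
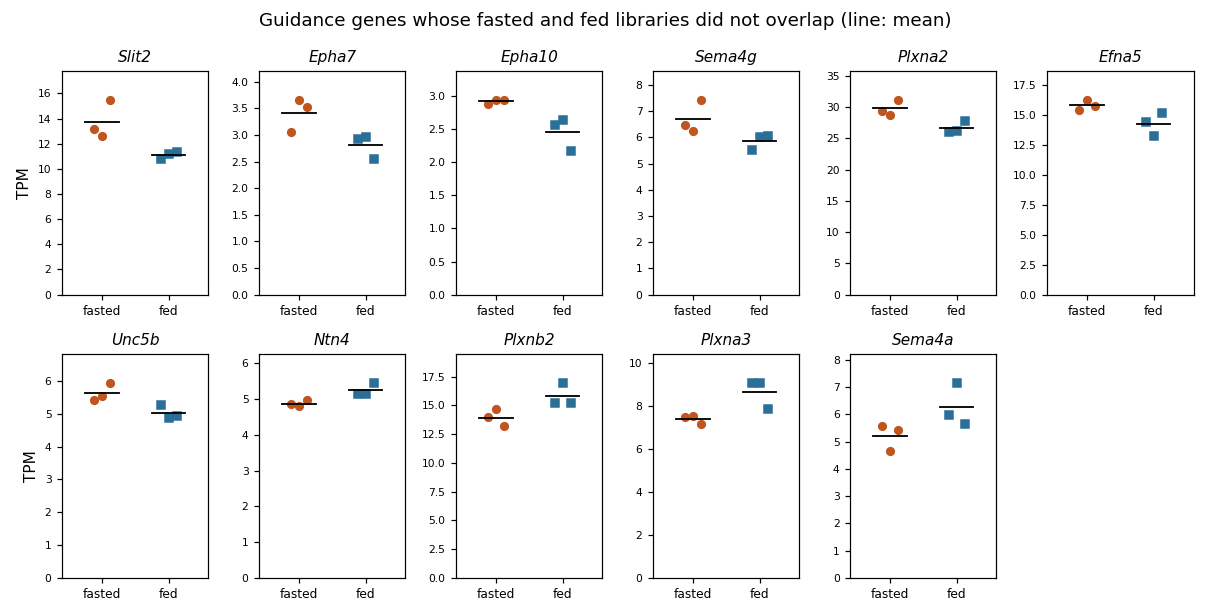
TPM of the 11 members whose fasted (circles) and fed (squares) libraries did not overlap, 1 panel per gene with its own linear axis from 0 and a line at each group's mean. The gaps between the groups are small beside the levels, as in Slit2, with means of 13.7 TPM in fasted and 11.1 TPM in fed libraries.

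Summed over its 8 genes, the ephrin ligand class was higher in all fasted libraries, with 98.9 ± 1.85 TPM in fasted and 91.2 ± 0.684 TPM in fed libraries (SD, n = 3 each). The sums also did not overlap after median-of-ratios scaling, without mitochondrial genes, or over protein-coding transcripts alone. The margins were narrow under the rescalings. The lowest fasted and highest fed sums were 94.8 and 94.3 TPM after median-of-ratios scaling. Without mitochondrial genes they were 101.7 and 100.9 TPM. No other ligand or receptor class separated in its sum on the deposited scale, and of the tested ephrins only Efna5 did. Among all tested single genes 17.8% separated, and the class sums were not tested. Efna5 (chr17:62604184-62881317, minus strand) had 15.4, 16.3 and 15.8 TPM in fasted and 14.5, 13.3 and 15.2 TPM in fed libraries, so that the highest fed library came close to the lowest fasted one. Its log2 fold change was 0.14 (SE 0.06, adjusted p = 0.514 by limma), and 0.09 without fed replicate 2. Of the 7 tested ephrins 5 had estimates above 0, and Efna2 and Efnb1 had estimates of -0.03 and -0.04. Efna1, Efna3 and Efna4 are neighbours on chromosome 3 between bases 89271733 and 89338028, and all 3 had higher means in fasted libraries. Those means were 34.8, 4.16 and 0.652 TPM in fasted libraries against 30.9, 3.30 and 0.458 TPM in fed ones. In each of the 3 genes the groups overlapped, and Efna4 was below the limit for testing. A link to their position was not tested.

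Among Eph receptors, Epha7 and Epha10 were higher without overlap at low levels. Epha7 (chr4:28813131-28967499, plus strand) had 3.07, 3.66 and 3.54 TPM in fasted and 2.93, 2.95 and 2.55 TPM in fed libraries, a log2 fold change of 0.21 (SE 0.10, adjusted p = 0.520 by limma). Over protein-coding transcripts alone the Epha7 groups overlapped, at a log2 fold change of 0.11. Epha10 (chr4:124880899-124917800, plus strand), like Ephb6 known as a receptor without kinase activity, had 2.89, 2.94 and 2.94 TPM in fasted and 2.56, 2.64 and 2.17 TPM in fed libraries. The fasted libraries were nearly level and fed replicate 3 was the lowest, at a log2 fold change of 0.19 (SE 0.10, adjusted p = 0.534 by limma). Epha3, below the limit for testing, had 0.851, 0.856 and 0.962 TPM in fasted and 0.830, 0.720 and 0.802 TPM in fed libraries and did not overlap either. The 5 B class receptors all overlapped, with estimates between -0.12 for Ephb4, the receptor of Efnb2 known from veins, and 0.02 for Ephb1. An exon of Epha10 overlaps 1700125G02Rik on the other strand, as 15 of the 68 members overlap such a gene. The library kit keeps strand, but the sources used here do not say how strand entered quantification.

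In the netrin system 2 genes separated, Ntn4 lower and Unc5b higher in fasted libraries. Ntn4 (chr10:93640681-93747207, plus strand), a netrin of basement membranes, had 4.86, 4.80 and 4.97 TPM in fasted and 5.14, 5.14 and 5.44 TPM in fed libraries. The fasted libraries were lower by a narrow margin, at a log2 fold change of -0.09 (SE 0.07, adjusted p = 0.665 by limma). Unc5b (chr10:60762593-60831581, minus strand), a netrin receptor also known from endothelium, had 5.43, 5.54 and 5.94 TPM in fasted and 5.27, 4.89 and 4.94 TPM in fed libraries. Its fasted libraries were higher, at a log2 fold change of 0.14 (SE 0.08, adjusted p = 0.540 by limma). Most endothelial markers were lower in the fasted libraries, and a link of Unc5b to them was not tested. The 4 netrins summed to 16.6, 16.02 and 16.6 TPM in fasted and 18.02, 16.5 and 18.2 TPM in fed libraries and overlapped. Their sums were lower in fasted libraries without overlap under both of the rescalings and over protein-coding transcripts alone.

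Below the gene sums, no single member transcript passed the test either. An isoform that carried the separation of its gene was seen for some genes but not for others. Of the 412 member transcripts 118 averaged at least 1 TPM and were tested. By limma over 33197 tested transcripts, 0 of the 118 had an adjusted p under 0.05, beside 9 of all transcripts, 0.0271%, and the smallest was 0.671. At an unadjusted p under 0.05 stood 6 higher and 1 lower, beside 4.49% and 2.71% of all tested transcripts in those directions. Without overlap were 12 higher and 8 lower member transcripts, 16.9% together, beside 14.4% of all tested transcripts, of which 9.38% were higher and 4.98% lower. In 28 tested members 1 transcript held more than 90% of the gene's TPM, and in 13 none held more than 50%. Values of overlapping transcripts depend on how shared reads are divided among them, and 18 of the tested member transcripts are under 1000 bases long.

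For Plxna2, Unc5b and Ntn4 the gene value was in effect the value of 1 coding transcript. Plxna2-201 (11040 bases) held 98.3% of Plxna2, with 28.9, 28.2 and 30.6 TPM in fasted and 25.6, 25.7 and 27.4 TPM in fed libraries. Unc5b-201 held 98.9% of Unc5b and Ntn4-201 held all of Ntn4, and for these as for Plxna2-201 the groups did not overlap. Efna5-201, at 96.9% of Efna5, had 14.6, 15.8 and 15.01 TPM in fasted and 14.04, 13.1 and 14.99 TPM in fed libraries, which overlapped, and the second transcript Efna5-202 had 0.853, 0.474 and 0.806 TPM in fasted and 0.418, 0.112 and 0.179 TPM in fed libraries.

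In Plxnb2 the main coding transcript did not share the lower values of the gene sum. The full-length coding transcript Plxnb2-202 (6497 bases) had 10.804, 10.843 and 11.326 TPM in fasted and 10.200, 10.796 and 10.471 TPM in fed libraries, so that the fasted libraries lay above the fed ones only in the third decimal. The short Plxnb2-205 (834 bases, annotated as a processed transcript without a coding frame) had 2.99, 3.53 and 1.78 TPM in fasted and 4.05, 4.69 and 3.09 TPM in fed libraries. Over protein-coding transcripts alone Plxnb2 overlapped, at a log2 fold change of -0.02 where the sum over all transcripts gave -0.17. Plxna3 behaved alike. Its coding transcript Plxna3-201 had 5.67, 5.52 and 5.41 TPM in fasted and 5.88, 5.24 and 6.54 TPM in fed libraries, which overlapped at -0.07 beside -0.20 for the gene sum, and the next, the retained-intron transcript Plxna3-203, averaged 0.709 ± 0.342 TPM in fasted and 0.823 ± 0.308 TPM in fed libraries. The lower sums of both plexins thus lay largely outside their main coding transcripts.

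Robo2 was the reverse case. Its 430-base processed transcript Robo2-207 had 11.6, 13.6 and 17.6 TPM in fasted and 15.3, 0 and 8.99 TPM in fed libraries, listed at 0 in fed replicate 2. The main coding transcript Robo2-202 (5988 bases) had 37.2, 38.1 and 40.8 TPM in fasted and 34.1, 30.3 and 36.3 TPM in fed libraries. Over protein-coding transcripts alone Robo2 had 75.5, 77.9 and 82.2 TPM in fasted and 72.8, 66.02 and 73.8 TPM in fed libraries, where all fasted libraries were higher at a log2 fold change of 0.15 (SE 0.05, adjusted p = 0.420 by limma). Plxnd1 had a similar short transcript, Plxnd1-204 with 442 bases and a retained intron, at 8.81, 12.5 and 15.6 TPM in fasted and 17.04, 8.91 and 0 TPM in fed libraries. The order of the Plxnd1 sums among fed libraries was that of this transcript, and its coding transcripts had 51.5, 51.3 and 49.6 TPM in fasted and 49.3, 46.2 and 51.5 TPM in fed libraries. Counted over protein-coding transcripts alone, 7 of 59 tested members were higher without overlap (Efna5, Epha10, Plxna2, Robo2, Sema4g, Sema5b and Unc5b), beside 14.4% of the genes tested that way. Another 3 were lower (Ntn4, Sema3c and Sema4a), beside 4.84%.

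**Figure D4:**
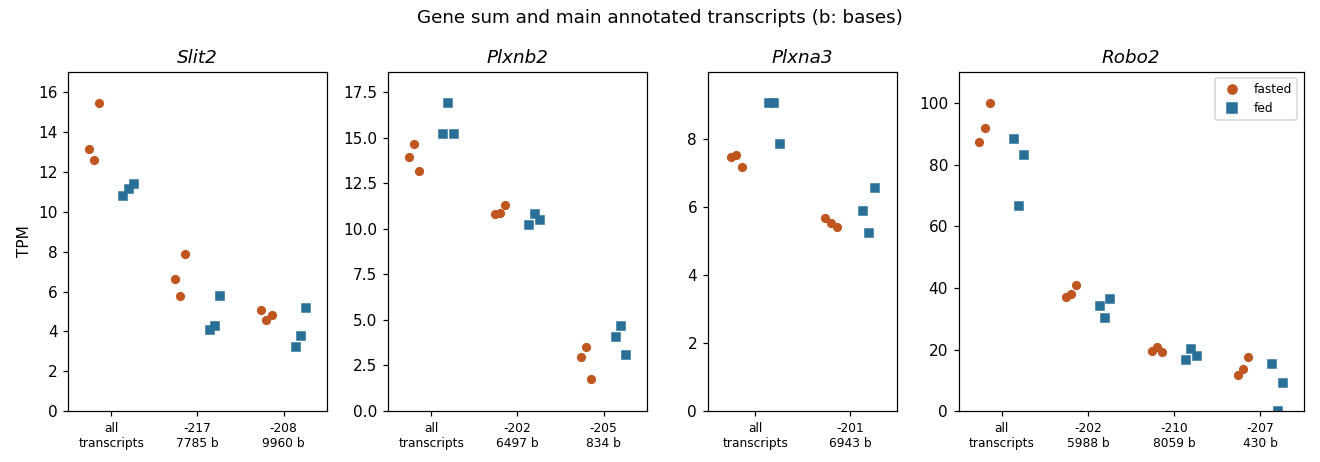
TPM of Slit2, Plxnb2, Plxna3 and Robo2 summed over all transcripts and for their main transcripts, with lengths in bases (b), for the 3 fasted (circles) and 3 fed (squares) libraries. For Plxnb2 the fasted libraries are lower in the sum but not in the coding transcript Plxnb2-202, and Robo2-207 is at 0 in fed replicate 2.

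Slit2 was carried by a pair of coding transcripts that differ in their small exons and in length. Slit2-217 (7785 bases), the one annotated transcript with the 27-base exon shown above, had 6.64, 5.78 and 7.87 TPM in fasted and 4.06, 4.27 and 5.77 TPM in fed libraries. Slit2-208 (9960 bases) had 5.07, 4.55 and 4.83 TPM in fasted and 3.24, 3.79 and 5.15 TPM in fed libraries. Fasted libraries were higher in Slit2-217, by a margin in the second decimal between the nearest libraries, at a log2 fold change of 0.45 (adjusted p = 0.671 by limma over transcripts), while Slit2-208 overlapped. Over protein-coding transcripts alone Slit2 had 11.9, 10.6 and 13.3 TPM in fasted and 9.92, 10.02 and 10.9 TPM in fed libraries, with an overlap, since fed replicate 3 lay above fasted replicate 2.

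The share of coding Slit2 TPM that holds the 24-base exon was 56.7%, 55.9% and 62.0% in fasted libraries and 62.6%, 61.2% and 52.8% in fed libraries. The 27-base exon had the same shares in fasted libraries and 46.9%, 43.7% and 52.8% in fed ones. The fasted shares of the 24-base exon lay within the fed range, and those of the 27-base exon all above it. These shares were not tested. In fed replicates 1 and 2 the 2 shares differ by Slit2-202, which was listed at 0, 0 and 0 TPM in fasted and 1.36, 1.70 and 0 TPM in fed libraries. Slit1 has no annotated coding transcript that spans its 24-base exon and skips it, so its share is 100% by annotation.

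For Robo2 the share with the 12-base exon was 36.2%, 36.8% and 34.2% in fasted libraries and 36.4%, 42.5% and 36.7% in fed libraries. Fed replicate 2 was the highest and the groups overlapped. The long form of the Nrp2 exon held 21.8%, 0.709% and 3.75% in fasted libraries and 11.3%, 6.76% and 3.49% in fed libraries. Its share varied more within each group than between them, and most Nrp2 TPM in every library carried the short form. Sema4g, whose first transcript Sema4g-201 had 2.65, 2.40 and 3.24 TPM in fasted and 3.003, 2.14 and 2.84 TPM in fed libraries, separated in its second. Sema4g-203 had 2.91, 2.39 and 2.39 TPM in fasted and 0, 2.10 and 1.61 TPM in fed libraries, while the decay-typed Sema4g-202 had 0.523, 0.889 and 0.973 TPM in fasted and 1.90, 1.18 and 1.52 TPM in fed libraries. In Sema4a the leading transcript Sema4a-214 had 0.622, 2.04 and 1.43 TPM in fasted and 2.78, 2.36 and 1.79 TPM in fed libraries and overlapped, and the second, Sema4a-212, averaged 0.830 ± 0.670 TPM in fasted and 0.894 ± 0.261 TPM in fed libraries. The leading Epha7 transcripts, Epha7-201 and Epha7-202, overlapped as well. Of Epha10 the leading Epha10-202 was higher in fasted libraries by a narrow margin, with 2.23, 2.06 and 2.56 TPM in fasted and 2.05, 1.90 and 2.002 TPM in fed libraries, and Epha10-201 overlapped.

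No gene on a list of those known to act with these cues, or as other cues, passed the test either. A list of 86 partners, which includes adaptors and co-receptors, collapsin response genes, and other cues and receptors, had 85 tested genes, and 0 passed at an adjusted p under 0.05 by limma. An unadjusted p under 0.05 was reached by 7 of the 85 in the higher and 2 in the lower direction, beside the 6.72% and 3.22% of all genes given above. The median log2 fold change was 0.02, and for 85 of 85 the 95% interval stayed within 1.5-fold. Without overlap were 16 higher and 2 lower partners, 21.2% of the 85, beside the 17.8% of all genes given above. By direction, 12.7% of all tested genes were higher without overlap and 5.07% lower. Of the 17 adaptors and co-receptors 6 were higher without overlap and 0 lower, and of the 11 collapsin response genes 1 was higher and 0 lower. Of the 27 tested other cues and receptors 5 were higher and 1 lower. These groups are small, and no difference between them and all genes was tested.

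L1cam, an adhesion molecule and co-receptor for Sema3a signalling, had 225, 239 and 236 TPM in fasted and 218, 200.01 and 210.4 TPM in fed libraries, with an adjusted p of 0.449 by limma. Evl and Enah, members of the Ena/VASP family that extends actin filaments, were on the same side. Evl had 158, 159 and 152 TPM in fasted and 147, 143 and 147 TPM in fed libraries, and Enah had 100.03, 94.3 and 114 TPM in fasted and 86.96, 92.3 and 86.4 TPM in fed libraries. Rras, a small GTPase on which plexins act, lay on the other side, with 74.3, 75.2 and 71.6 TPM in fasted and 82.3, 80.7 and 79.7 TPM in fed libraries and an adjusted p of 0.443 by limma. Lingo1, a co-receptor for myelin inhibitors, had the smallest adjusted p of the list, 0.423 by limma, with 69.5, 70.2 and 68.8 TPM in fasted and 61.1, 58.7 and 64.3 TPM in fed libraries. The netrin-G gene Ntng2 averaged 55.3 ± 0.448 TPM in fasted and 49.7 ± 2.69 TPM in fed libraries, and the netrin-G ligand family gene Lrrc4 averaged 9.60 ± 0.756 TPM in fasted and 7.97 ± 0.581 TPM in fed libraries. Sdc3, a heparan sulfate proteoglycan, averaged 106 ± 2.82 TPM in fasted and 113 ± 1.12 TPM in fed libraries. Among these 8 genes, those higher in fasted libraries were L1cam, Evl, Enah, Lingo1, Ntng2 and Lrrc4, and those lower were Rras and Sdc3.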

How the data were processed

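Messenger RNA was measured in 6 libraries, 3 fasted and 3 fed, grouped and numbered by the labels. The authors deposited a table of TPM values by transcript, summing to 1000000 in each library, with 140992 transcripts. The submitters' processing notes name Salmon 1.6.0, DESeq2 1.34.0, Trim Galore 0.6.6 and FastQC 0.11.9, with GRCm38 and mm10; their roles and the annotation release are not stated there. TPM keeps no depth, so the precision of low values is unknown. It is a share, so more of some transcripts means less of others.

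From these values TPM was summed per gene symbol, genes averaging at least 1 TPM were kept, and log2(TPM + 1) was compared with limma 3.58.1 (R 4.3.3; 1 term for group, variances moderated along an intensity trend, two-sided, Benjamini-Hochberg, threshold 0.05). The fit understates fold changes of low genes. Single transcripts were fitted likewise. The procedure was tested on simulated data with planted changes of 1 on the log2 scale. Recovery of changes as small as the members' estimates was not tested. GENCODE M21 (GRCm38) gave positions, transcript types and exons, and held all 412 member transcripts. Exon shares are the TPM of coding transcripts with the exon over that of coding transcripts spanning it.

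The members and lists were chosen with earlier results of these data known. Genes named with values were the leading member of each family, tested members without overlap, members below the limit, and up to 8 partners without overlap by smallest p; others, such as Efna3, Sema3g, Plxnb1, Neo1 and the exons, were chosen after their values were seen. Counts for 1 group of the partner list are not reported here. Alternatives were other pseudocounts (0.1, 0.5), other filters (none, or a mean of 5 TPM), 3 other scalings, no trend, a replicate block and leaving out each library. Protein-coding transcripts only, and counts of separated genes under other scalings or without fed replicate 2, were added after the data were seen. Plots were made with matplotlib 3.10.9.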

Additional observations from a re-analysis of the deposited data

How the results depend on the processing

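No guidance gene, partner or member transcript was called under any of the 16 alternatives (for transcripts, all but the sum over protein-coding ones, which has no transcript form). Over all genes the single call became 2 with a pseudocount of 0.1 or 0.5, and 0 with no filter or with protein-coding transcripts only; leaving out 1 library gave between 1 and 6 calls, with 6 without fed replicate 3, 4 without fasted replicate 3, 3 without fed replicate 1, and 2 without fasted replicate 1 or fed replicate 2. With a replicate block the calls were 1 among genes and 0 among members (smallest adjusted p 0.429 by limma), and calls among all transcripts were 0 with the block against 9 without it. Same-numbered libraries deviated together only weakly (r = 0.093, 0.114 and 0.066), though each library correlated best with its own number; the samples share only a number. Of 430 estimates for 27 named members under the alternatives, 414 kept their direction and 16, in 7 members, changed sign, all near 0. The other filters, no trend and the replicate block leave an estimate unchanged by design. They change only its p-value, so they could not turn a sign and add nothing to the count of kept directions. Plxnc1 became -0.0089 after median-of-ratios scaling, -0.0086 after quantile normalization, -0.010 without mitochondrial genes, and -0.017 to 0.053 with 1 library left out. Sema6d became -0.0083, -0.010 and -0.0095 under the same scalings, and -0.0065 to 0.043 with 1 library left out; Sema3b became -0.0011 after quantile normalization, and -0.0087 to 0.084. With 1 library left out, Sema5a ran from -0.027 to 0.096, Ephb6 from -0.070 to 0.021, Nrp1 from -0.065 to 0.029 and Unc5a from -0.066 to 0.039. The libraries whose omission turned a sign were fed replicate 2 for Plxnc1, fasted replicate 3 for Sema6d, fasted replicate 3 and fed replicate 1 each for Sema3b and Sema5a, fed replicate 3 for Ephb6 and Unc5a, and fasted replicate 1 for Nrp1. The cause was not tested. Genes without overlap, higher and lower, were 7.61% and 7.91% of all after median-of-ratios scaling and 7.46% and 8% without mitochondrial genes, against 12.7% and 5.07% on the deposited scale.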
